A study of Homo sapiens with 6 samples.

Results

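Cyclins, cyclin-dependent kinases (CDKs), CDK inhibitors and their direct regulators were examined in MDA-MB-453, a human line derived from breast cancer. The members were a given list of 48 gene symbols, outside the genes of DNA replication, and all 48 were found among the 60569 gene names of the table. RNA was sequenced from 3 libraries of cells transfected with a ZNF207 construct and from 3 libraries of cells transfected with a control vector, and the libraries of a group are biological replicates by the design text. All 6 libraries therefore come from transfected cells of 1 line. The promoter of the construct, the time after transfection and the share of cells that took it up are unknown. ZNF207 (also called BuGZ) encodes a zinc finger protein of spindle assembly that binds the checkpoint protein BUB3.

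The cell cycle is driven by CDKs, which are inactive until a cyclin binds them. D-type cyclins with CDK4 or CDK6 phosphorylate the retinoblastoma protein in G1, cyclin A2 acts in S and G2, and cyclin B with CDK1 starts mitosis. INK4 proteins block CDK4 and CDK6, and CIP/KIP proteins bind a wider range of cyclin-CDK complexes. A second branch of the family, with cyclins C, H, K, L and T, works on RNA polymerase II and on splicing. Cyclin H is also the cyclin of the CDK-activating kinase, so this branch is not apart from division.

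The table gives FPKM, fragments scaled to transcript length and to library size, so levels may be compared between genes. Read numbers are unknown, and means are given ± SD over 3 libraries. FPKM summed to between 589550 and 611013 in the construct libraries and to between 595032 and 612875 in the control libraries. ZNF207 stood at 885, 786 and 750.0 FPKM in the construct libraries, against 69.2, 66.99 and 63.7 FPKM in the control libraries, so every library labelled as carrying the construct had the higher level (log2 change 3.58, SE 0.07, adjusted p = 4.03e-09; chromosome 17, 32350117 to 32381886, plus strand, GRCh38). The 8 markers of luminal breast epithelium, keratins 8, 18 and 19 and EPCAM among them, summed to between 6282 and 6385 FPKM in the construct libraries and to between 6683 and 7032 FPKM in the control libraries. Of the markers of other cell types, all 3 endothelial genes, 4 of 5 immune genes and 5 of 6 fibroblast genes were under 1 FPKM in every library, and the fibroblast sum was 8.27 to 10.5 FPKM in the construct libraries and 9.49 to 11.7 FPKM in the control libraries, most of it COL1A1. The luminal sum was thus lower in every construct library, and its part in the results was not tested.

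None of the members passed the test. The groups were compared on log2(FPKM + 1) with limma, with the Benjamini-Hochberg procedure over the 13185 genes that reached 1 FPKM in at least 3 libraries, and 45 members were among these. Of all tested genes 0.212% were called at an adjusted p under 0.05, 0.0531% as higher and 0.159% as lower, which is 7 and 21 genes. With quantile scaling it was 8 higher and 12 lower. Of the 45 tested members 0 were called in either direction, and the smallest adjusted p among them was 0.235. At an unadjusted p under 0.05, 4 members were higher and 4 were lower, which is 17.8% of those tested, against 12.1% of all tested genes, 5.08% higher and 7.03% lower. The groups did not overlap for 12 of the 45, or 26.7%, with 7 above and 5 below the control libraries. Among all tested genes the groups did not overlap for 18.0%, with 7.61% above and 10.4% below.

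The median log2 change of the 45 members was -0.01, as was the median over all tested genes. Of the members 19 estimates were above 0 and 26 below, against 6274 above and 6911 below among all 13185 tested genes. The median half-width of the 95% interval was 0.16 on the log2 scale for the members, against 0.21 over all tested genes. For 43 of the 45 the whole interval lay between -0.5 and 0.5, and the exceptions were CDK6 and CDKN2A, which are both low. In bulk RNA a different share of cells in a phase and a different level per cell cannot be told apart. The median SD within groups was 0.08 for the members on the log2 scale and 0.11 for the 12926 tested genes within the same range of levels. That range, from 0.954 to 447 FPKM, holds most of the 13185 tested genes, so the genes compared were not matched to the members in level.

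**Figure D1:**
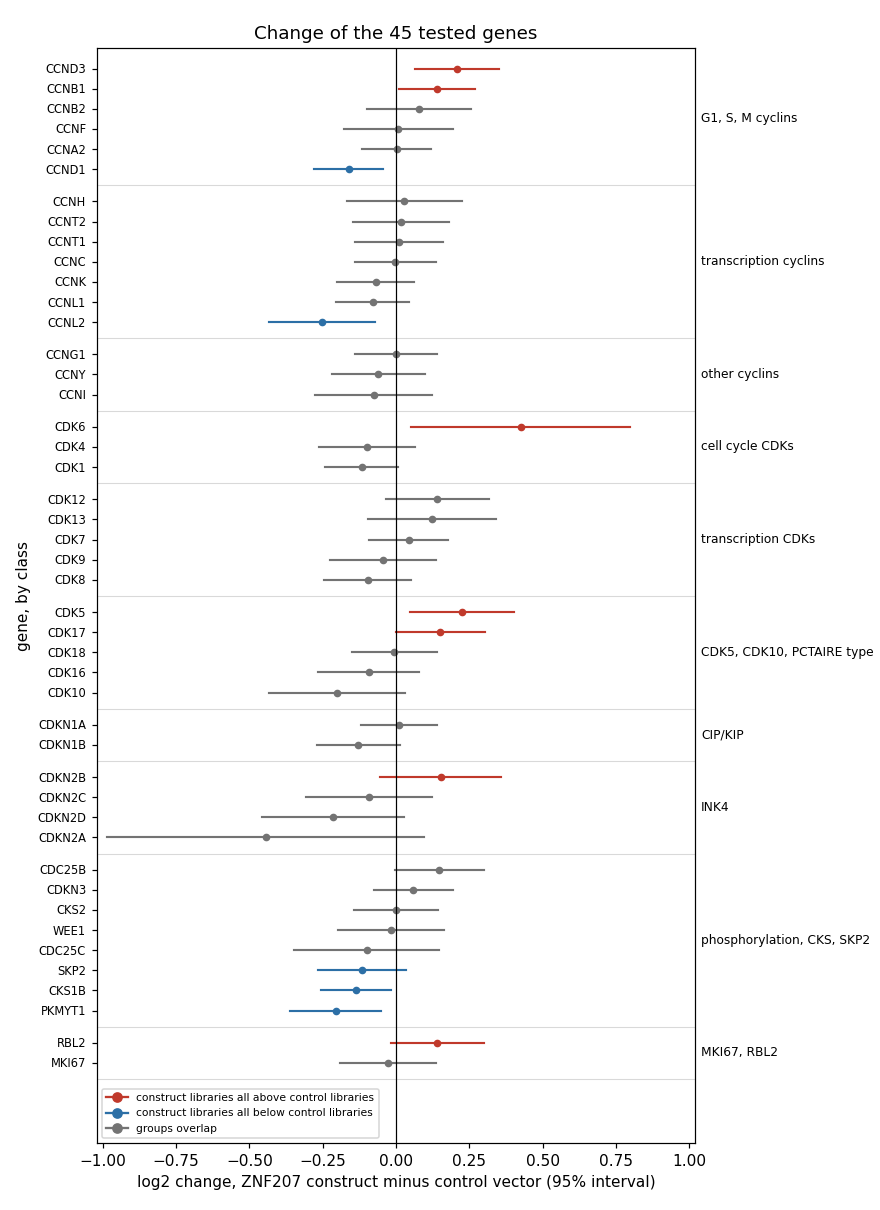
Log2 change (construct minus control, on log2(FPKM + 1)) of the 45 tested genes by class, with the limma estimate as a point and its 95% interval as a line. Colours show whether all 3 construct libraries lay above or below all 3 control libraries. All but the intervals of CDK6 and CDKN2A lie between -0.5 and 0.5.

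The levels themselves set out which members of the family this line expresses. Of the 48 members, 9 had a mean over the 6 libraries of 100 FPKM or more, 30 lay between 10 and 100, 5 between 1 and 10 and 4 under 1. The highest were cyclin D1 (CCND1) at 447, the CIP/KIP inhibitor p21 (CDKN1A) at 354, cyclin I (CCNI) at 203, the CDK-binding proteins CKS2 at 159.7 and CKS1B at 149, and CDK4 at 142 FPKM. The lowest were the CIP/KIP inhibitor p57 (CDKN1C), listed at 0 in 5 libraries and at 0.0314 FPKM in control replicate 1, cyclin D2 (CCND2) at 0.0737 FPKM and CDK14 at 0.598 FPKM. These 3 did not reach the filter and were not tested. CDKN2A, which encodes p16 and ARF, averaged 0.954 FPKM and passed it.

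**Figure D2:**
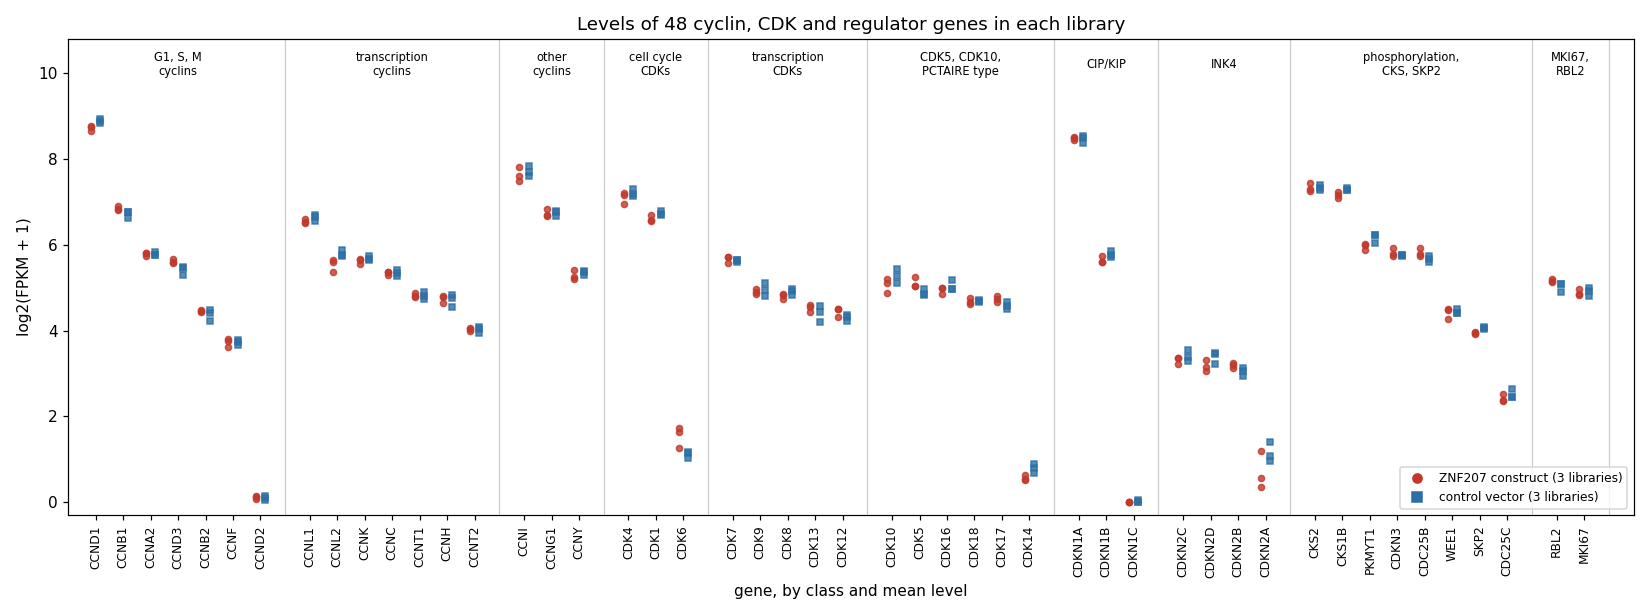
Level of each of the 48 genes as log2(FPKM + 1), by class and ordered by mean within a class, with 1 point per library and the construct libraries drawn left of the control libraries. CCND1 and CDKN1A stand highest, CDK4 far above CDK6, and CCND2, CDK14 and CDKN1C near 0.

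Several cell cycle genes of the list share a promoter element that is known from genes expressed in G2 and mitosis. The cell cycle genes homology region, TTTGAA or TTCGAA, lies near the start of such genes and is bound by the DREAM and MYB-MuvB complexes. It was searched on both strands of the RefSeq promoter table, which holds 250 bases before and 50 bases after each start on GRCh38.p14 and has 43 of the 48 members. At least 1 match was found in 12 of the 43 members, or 27.9%, against 19.5% of 27305 genes. The members with TTTGAA within 50 bases before a RefSeq start are shown, since the element is known to act there, with 30 bases each, read 5′ to 3′ along the gene, and with the match (TTCAAA where it lies on the opposite strand) in capitals.
CCNB2, chr15:59105099-59105128, plus strand: ggcgcaagcgacgcggtaTTTGAAtcctgg
CDK1, chr10:60778447-60778476, plus strand: gccctttagcgcggtgagTTTGAAactgct
CDC25C, chr5:138331823-138331852, minus strand: tactgggctggcggaaggTTTGAAtggtca
CKS1B, chr1:154974633-154974662, plus strand: ggaagtgcgggcggcgtgTTTGAAagcgag
CKS2, chr9:89311148-89311177, plus strand: cggcggcgggctgtcggaTTCAAAtccgga
MKI67, chr10:128126441-128126470, minus strand: TTTGAAtcttcgttttcgTTTGAAttgggc

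The match began 29 bases before the start in CCNB2 and CKS2, 30 in CDC25C and CKS1B, 13 in CDK1, and 47 and 29 in MKI67, which has a pair of them. The 12 members with a match had a median log2 change of 0.00 and ran from -0.14 to 0.15, and the 30 other tested members in the promoter table had a median of 0.00. The CCAAT box, read as CCAAT on either strand, was in 24 of the 43 members, or 55.8%, against 39.7% of all genes. Its letters can share 1 base with the first element, as they do in the stretch of MKI67 printed here. Those 24 had a median log2 change of 0.00. E2F sites, written as TTTCCCGC, TTTCGCGC, TTTGCCGC or TTTGGCGC, were in 2 of the 43, CDK1 and CDK10, or 4.65%, against 3.99% of all genes. These 2 had a median log2 change of -0.16, against 0.00 for the 40 tested members without a match. The hypoxia response core ACGTG was in 14, or 32.6%, against 24.9% of all genes, and the 13 of these that were tested had a median log2 change of 0.01. A match is a description of letters only.

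Among the cyclins of G1, S and mitosis, CCND1 lay lower, and CCND3 and CCNB1 higher, in all 3 construct libraries than in any control library, and none of the 3 passed the test. CCND1 (chromosome 11, 69641087 to 69654474, plus strand, GRCh38) stood at 434, 428 and 403 FPKM in the construct libraries, against 458, 488 and 469 FPKM in the control libraries. Its means were 422 ± 16.4 FPKM in construct and 472 ± 15.3 FPKM in control libraries (SD, n = 3 each), with a log2 change of -0.16 (SE 0.05, adjusted p = 0.258). The highest construct library was below the lowest control library. High-level genes leaned the same way. Among the 303 tested genes with a mean of 250 FPKM or more the median log2 change was -0.07. Of these, 212 were below 0, against 6911 of all 13185 tested genes. The 303 hold 2 members, CCND1 and CDKN1A, and CDKN1A had a log2 change of 0.01. Whether this lean bears on CCND1 was not tested.

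CCND3 (chromosome 6, 41934933 to 42050357, minus strand) stood at 46.9, 47.8 and 49.9 FPKM in the construct libraries, against 38.6, 42.7 and 43.6 FPKM in the control libraries, with no overlap. Its means were 48.2 ± 1.54 FPKM in construct and 41.6 ± 2.66 FPKM in control libraries (SD, n = 3 each), and its log2 change of 0.21 (SE 0.06, adjusted p = 0.235) had the smallest p of all members. D-type cyclins are close relatives that activate the same kinases, so their proportions were set side by side. CCND1 made up 90.2%, 89.95% and 89.0% of the FPKM of the 3 D-type cyclins in the construct libraries, against 92.2%, 91.95% and 91.5% in the control libraries. The means were 89.7% ± 0.658 and 91.9% ± 0.372 (SD, n = 3 each), with an exact two-sided permutation p of 0.1, the smallest that 3 against 3 libraries allow. The share of CCND1 was thus lower in each construct library than in any control library. This follows from the values of CCND1 and CCND3 given above, so the share and its p add no separate support. The same holds for the shares of CDK6, CDKN1A, CKS1B and CCNL2 given below. Each of these also has a p of 0.1, the smallest possible, and follows from the values of its genes. CCND2 stood at 0.0884, 0.1004 and 0.05001 FPKM in the construct libraries, against 0.0366, 0.0681 and 0.0986 FPKM in the control libraries.

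Of the mitotic cyclins, CCNB1 (chromosome 5, 69167010 to 69178245, plus strand) stood at 113, 111 and 119.7 FPKM in the construct libraries, against 107, 97.7 and 107 FPKM in the control libraries. Its log2 change was 0.14 (SE 0.06, adjusted p = 0.369), and the groups did not overlap, though construct replicate 2 lay close to control replicates 1 and 3. Its relative CCNB2 stood at 20.8, 20.5 and 21.3 FPKM in the construct libraries, against 20.2, 21.4 and 17.7 FPKM in the control libraries, which overlap, with a log2 change of 0.08 (SE 0.08, adjusted p = 0.736). CCNB1 made up 84.5%, 84.5% and 84.9% of their summed FPKM in the construct libraries, against 84.1%, 82.1% and 85.8% in the control libraries (exact two-sided permutation p = 0.7). CCNA2, the cyclin of S and G2, averaged 54.2 ± 1.398 FPKM in construct and 54.1 ± 1.22 FPKM in control libraries (SD, n = 3 each), and its log2 change of 0.00 had a 95% interval of -0.12 to 0.12. CCNF, a cyclin that acts as a substrate receptor of an SCF ubiquitin ligase, averaged 12.3 ± 0.929 FPKM in construct and 12.2 ± 0.495 FPKM in control libraries (SD, n = 3 each). The 6 tested cyclins of this class had a median log2 change of 0.04, with 5 estimates above 0, 3 genes without overlap and 0 called. Among all tested genes 6274 of 13185 estimates were above 0, 18.0% had groups without overlap and 0.212% were called.

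The kinases of the cell cycle were CDK1, CDK4 and CDK6. CDK1, the partner of cyclin B, stood at 102.5, 95.2 and 93.3 FPKM in the construct libraries, against 108.9, 102.0 and 104.8 FPKM in the control libraries, where only construct replicate 1 reached into the control range (log2 change -0.12, SE 0.06, adjusted p = 0.443). CDK4 stood at 146, 141 and 124 FPKM in the construct libraries, against 139, 156 and 145 FPKM in the control libraries, and the groups overlapped (log2 change -0.10, SE 0.07, adjusted p = 0.643). CDK6 (chromosome 7, 92604921 to 92836594, minus strand), which pairs with the same cyclins as CDK4, was low, at 2.11, 2.31 and 1.38 FPKM in the construct libraries, against 1.05, 1.23 and 1.22 FPKM in the control libraries. All construct libraries were above all control libraries, replicate 3 only slightly, and the log2 change of 0.43 (SE 0.17, adjusted p = 0.341) had a 95% interval of 0.05 to 0.80. Over the alternative settings it ran from 0.33 to 0.66, the higher end with a pseudocount of 0.1. CDK6 made up 1.42%, 1.61% and 1.11% of the summed FPKM of CDK4 and CDK6 in the construct libraries, against 0.748%, 0.786% and 0.833% in the control libraries (exact two-sided permutation p = 0.1), so CDK4 was the main transcript of the pair in both groups. The 3 kinases had a median log2 change of -0.10.

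**Figure D3:**
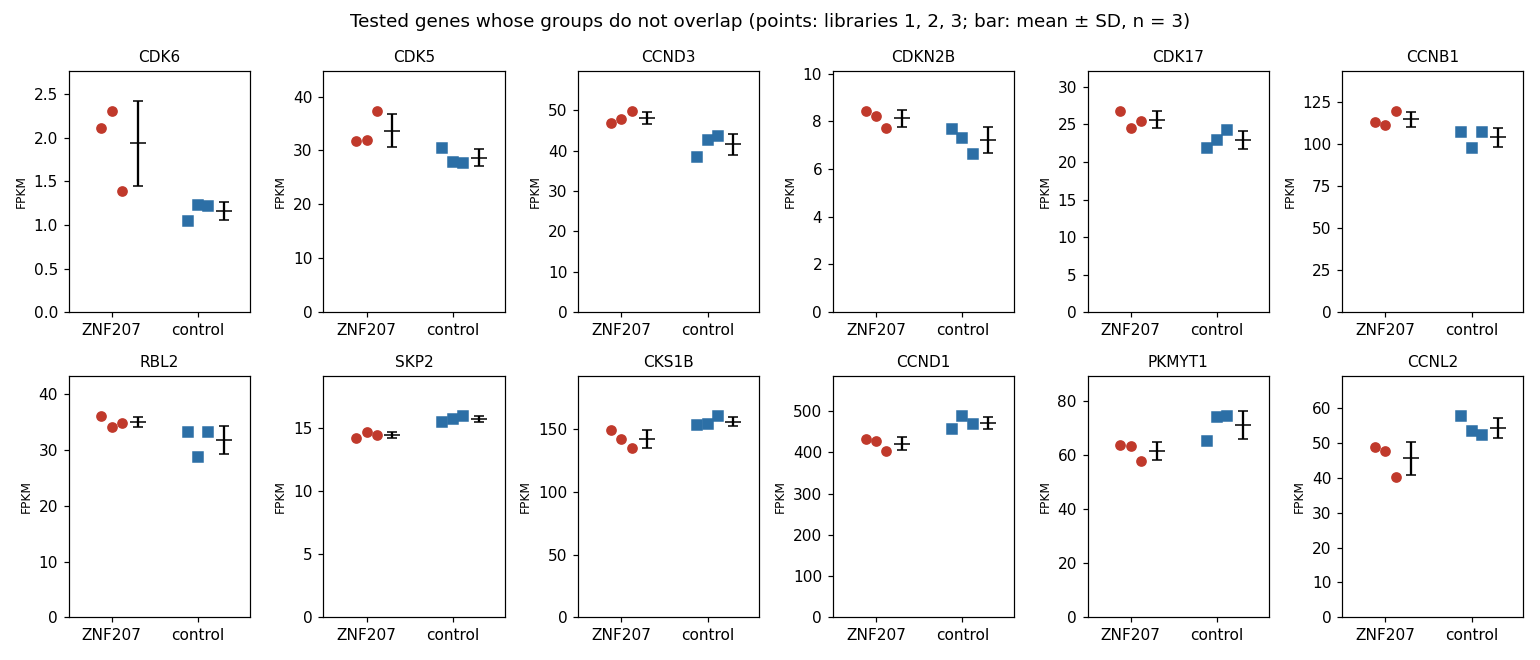
FPKM of the 12 tested genes whose groups do not overlap, with each library as a point (replicates 1, 2 and 3 from left to right) and the mean ± SD beside it, construct libraries on the left of each panel. In the upper row and for RBL2 the construct libraries are higher, and for SKP2, CKS1B, CCND1, PKMYT1 and CCNL2 they are lower. None of the 12 passed the test.

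Among the inhibitors, p21 was abundant and its groups overlapped. CDKN1A, a target of p53 that stops CDK2 complexes, stood at 345, 356 and 363 FPKM in the construct libraries, against 328, 371 and 359 FPKM in the control libraries. Its log2 change was 0.01 (SE 0.06, adjusted p = 0.96) with a 95% interval of -0.12 to 0.14, so a change beyond 0.14 on this scale lies outside the interval. CDKN1B, which encodes p27, stood at 47.4, 52.2 and 47.8 FPKM in the construct libraries, against 51.8, 56.7 and 52.9 FPKM in the control libraries, and only construct replicate 2 lay within the control range (log2 change -0.13, SE 0.06, adjusted p = 0.455). CDKN1A made up 87.9%, 87.2% and 88.4% of the FPKM of the CIP/KIP genes in the construct libraries, against 86.4%, 86.7% and 87.2% in the control libraries, where construct replicate 2 and control replicate 3 nearly met (exact two-sided permutation p = 0.1).

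The INK4 inhibitors were all low, at 10.7 FPKM or less in every library. CDKN2B, which encodes p15, stood at 8.43, 8.22 and 7.71 FPKM in the construct libraries, against 7.69, 7.303 and 6.63 FPKM in the control libraries, and the lowest construct value exceeded the highest control value by a narrow margin (log2 change 0.15, SE 0.09, adjusted p = 0.551). CDKN2C, which encodes p18, averaged 8.99 ± 0.5501 FPKM in construct and 9.67 ± 0.968 FPKM in control libraries, and CDKN2D, which encodes p19, averaged 8.04 ± 0.846 FPKM in construct and 9.49 ± 1.01 FPKM in control libraries (SD, n = 3 each). Both overlapped between the groups, with log2 changes of -0.09 (adjusted p = 0.75) and -0.21 (adjusted p = 0.468). CDKN2A was the least certain value, with 1.29, 0.275 and 0.469 FPKM in the construct libraries, against 1.09, 0.9495 and 1.65 FPKM in the control libraries and a log2 change of -0.44 (SE 0.24, adjusted p = 0.501). That change was -0.96 with a pseudocount of 0.1 and ran from -0.69 to -0.27 with 1 library left out. The 4 genes had a median log2 change of -0.15. CDKN2A and CDKN2B stand on a listed locus with 14 gene names, an antisense RNA gene among them, and strand was not given in the sources used here, so reads of these genes may not be told apart.

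Of the enzymes that set the phosphorylation of CDKs, PKMYT1 lay lower in all construct libraries, and none passed the test. PKMYT1 (chromosome 16, 2968024 to 2980539, minus strand), a membrane-bound kinase that inhibits CDK1, stood at 63.8, 63.2 and 57.8 FPKM in the construct libraries, against 65.4, 73.96 and 74.4 FPKM in the control libraries. It was lower in each construct library, though control replicate 1 lay close to them, and its log2 change was -0.21 (SE 0.07, adjusted p = 0.269). WEE1, the nuclear kinase with the same action, stood at 21.5, 21.7 and 18.3 FPKM in the construct libraries, against 20.2, 20.2 and 21.7 FPKM in the control libraries (log2 change -0.02, SE 0.08, adjusted p = 0.957), with overlapping groups. Of the phosphatases that remove this mark, CDC25B stood at 52.6, 54.1 and 59.6 FPKM in the construct libraries, against 47.1, 49.95 and 52.7 FPKM in the control libraries (log2 change 0.15, SE 0.07, adjusted p = 0.425), where control replicate 3 just passed construct replicate 1. CDC25C averaged 4.35 ± 0.3100 FPKM in construct and 4.74 ± 0.447 FPKM in control libraries (SD, n = 3 each; log2 change -0.10, adjusted p = 0.763), and CDKN3, a phosphatase that acts on CDK2, averaged 55.4 ± 3.603 FPKM in construct and 53.03 ± 0.724 FPKM in control libraries (log2 change 0.06, adjusted p = 0.742).

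The ubiquitin ligase subunit SKP2 and its cofactor CKS1B, which together mark p27 for destruction, were both lower in all construct libraries, and neither passed the test. SKP2 (chromosome 5, 36151989 to 36184319, plus strand) stood at 14.2, 14.6 and 14.4 FPKM in the construct libraries, against 15.5, 15.7 and 15.9 FPKM in the control libraries, with little spread within either group (log2 change -0.12, SE 0.07, adjusted p = 0.529). CKS1B (chromosome 1, 154974653 to 154979249, plus strand) stood at 149, 142 and 135 FPKM in the construct libraries, against 154, 154 and 160.2 FPKM in the control libraries (log2 change -0.14, SE 0.05, adjusted p = 0.348). Its close relative CKS2 overlapped, at 156, 173 and 151 FPKM in the construct libraries, against 153, 159.5 and 167 FPKM in the control libraries. CKS1B made up 48.9%, 45.1% and 47.3% of their summed FPKM in the construct libraries, against 50.1%, 49.1% and 49.0% in the control libraries (exact two-sided permutation p = 0.1). GENCODE v29 lists 6 pseudogenes named after CKS1B, and how shared reads were assigned is unknown. The 8 genes of phosphorylation, the CKS proteins and SKP2 had a median log2 change of -0.06, with 6 estimates below 0 and 3 genes without overlap. Among all tested genes 6911 of 13185 estimates were below 0 and 18.0% had groups without overlap.

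Of the 7 cyclins of transcription and splicing 1 had groups without overlap, or 14.3%, against 18.0% of all tested genes. CCNL2 (chromosome 1, 1385711 to 1399328, minus strand), a cyclin of nuclear speckles that binds CDK11, stood at 48.8, 47.7 and 40.2 FPKM in the construct libraries, against 57.6, 53.2 and 52.1 FPKM in the control libraries. Its log2 change was -0.25 (SE 0.08, adjusted p = 0.247), it ran from -0.30 to -0.17 over the alternative settings, and construct replicate 3 was the lowest of the 6 libraries. CCNL1, its relative, stood at 90.5, 91.01 and 96.7 FPKM in the construct libraries, against 102, 98.6 and 93.7 FPKM in the control libraries (log2 change -0.08, SE 0.06, adjusted p = 0.611), which overlap. CCNL2 made up 35.0%, 34.4% and 29.4% of their summed FPKM in the construct libraries, against 36.1%, 35.0% and 35.7% in the control libraries (exact two-sided permutation p = 0.1), where construct replicate 1 and control replicate 2 met. CCNK, the partner of CDK12 and CDK13, averaged 48.1 ± 1.98 FPKM in construct and 50.5 ± 1.88 FPKM in control libraries (SD, n = 3 each; log2 change -0.07, adjusted p = 0.682). CCNC, the Mediator cyclin, averaged 39.5 ± 1.03 FPKM in construct and 39.6 ± 2.14 FPKM in control libraries, and CCNH, the cyclin of the CDK-activating kinase, averaged 25.8 ± 1.45 FPKM in construct and 25.4 ± 2.78 FPKM in control libraries. The cyclins of the elongation factor P-TEFb were at 27.3 ± 0.976 FPKM in construct and 27.1 ± 1.596 FPKM in control libraries (CCNT1) and at 15.4 ± 0.459 FPKM in construct and 15.2 ± 0.808 FPKM in control libraries (CCNT2). All 4 overlapped between the groups, and the 7 genes of the class had a median log2 change of 0.00.

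The kinases of this branch overlapped between the groups in all 5 cases, as did 10816 of all 13185 tested genes. CDK12 and CDK13, which phosphorylate the polymerase tail with cyclin K, averaged 20.7 ± 1.64 and 22.1 ± 1.32 FPKM in the construct libraries, against 18.7 ± 0.8903 and 20.3 ± 2.66 FPKM in the control libraries (SD, n = 3 each). Their log2 changes were 0.14 (adjusted p = 0.513) and 0.12 (adjusted p = 0.664). CDK7, the kinase of TFIIH, averaged 50.00 ± 2.87 FPKM in construct and 48.5 ± 0.849 FPKM in control libraries (log2 change 0.04, adjusted p = 0.827). CDK8, the Mediator kinase, averaged 26.99 ± 1.09 FPKM in construct and 28.9 ± 1.54 FPKM in control libraries (log2 change -0.10, adjusted p = 0.609), and CDK9, the kinase of P-TEFb, averaged 29.02 ± 1.08 FPKM in construct and 30.1 ± 3.19 FPKM in control libraries. The class had a median log2 change of 0.04.

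Among the CDKs with roles outside the division cycle, CDK5 and CDK17 were higher in all construct libraries without passing the test. CDK5 (chromosome 7, 151053812 to 151058530, minus strand), best known from neurons, stood at 31.8, 31.98 and 37.3 FPKM in the construct libraries, against 30.5, 27.8 and 27.7 FPKM in the control libraries. Construct replicate 3 was the highest and the other two lay close to control replicate 1 (log2 change 0.23, SE 0.08, adjusted p = 0.29). CDK17, a PCTAIRE-type kinase, stood at 26.8, 24.6 and 25.5 FPKM in the construct libraries, against 21.8, 22.9 and 24.2 FPKM in the control libraries, with construct replicate 2 just above control replicate 3 (log2 change 0.15, SE 0.07, adjusted p = 0.414). CDK14 was under 1 FPKM in every library, at 0.542, 0.424 and 0.443 FPKM in the construct libraries, against 0.849, 0.6097 and 0.723 FPKM in the control libraries, and was lower in each construct library but below the filter. CDK10, which pairs with cyclin M, stood at 35.97, 33.4 and 28.6 FPKM in the construct libraries, against 42.2, 37.7 and 33.3 FPKM in the control libraries, and overlapped (log2 change -0.20, SE 0.10, adjusted p = 0.477). CDK16 averaged 29.8 ± 1.49 FPKM in construct and 31.9 ± 2.87 FPKM in control libraries (log2 change -0.09, adjusted p = 0.677) and CDK18 averaged 24.7 ± 1.29 FPKM in construct and 24.8 ± 0.521 FPKM in control libraries, and both overlapped. Of the other cyclins, CCNY, a membrane-bound activator of CDK14 and CDK16, averaged 38.1 ± 3.21 FPKM in construct and 39.7 ± 1.29 FPKM in control libraries (log2 change -0.06, adjusted p = 0.784). CCNG1, a p53 target, averaged 106 ± 6.63 FPKM in construct and 106 ± 5.04 FPKM in control libraries, and CCNI averaged 198 ± 22.9 FPKM in construct and 209 ± 17.98 FPKM in control libraries (SD, n = 3 each). The 10 tested members whose log2 change is not given one by one ran from -0.08 to 0.03.

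The proliferation marker and the pocket protein of the list did not pass the test either. MKI67, which encodes Ki-67 and is expressed in dividing cells, stood at 30.2, 27.3 and 27.9 FPKM in the construct libraries, against 30.9, 26.9 and 29.4 FPKM in the control libraries. The groups overlapped, and its log2 change of -0.03 had a 95% interval of -0.19 to 0.13. RBL2, which encodes p130, the pocket protein of the DREAM complex in resting cells, stood at 36.04, 34.1 and 34.8 FPKM in the construct libraries, against 33.1, 28.8 and 33.2 FPKM in the control libraries. Its construct libraries were all higher, construct replicate 2 only slightly above control replicate 3 (log2 change 0.14, SE 0.07, adjusted p = 0.468).

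No library held the extremes alone. Among the 45 tested members, construct replicates 1, 2 and 3 had the highest of the 6 values 7, 4 and 6 times, against 10, 9 and 9 times for control replicates 1, 2 and 3. The lowest value fell 9, 4 and 12 times to the construct replicates, against 7, 8 and 5 times to the control replicates, so construct replicate 3 was the library most often lowest.

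**Figure D4:**
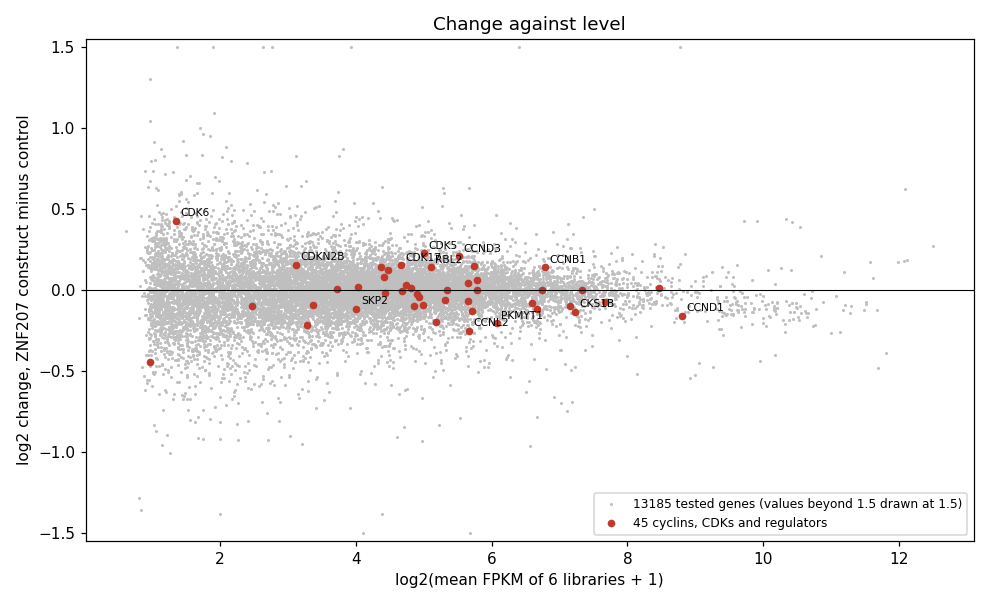
Log2 change (construct minus control) against log2 of the mean FPKM plus 1 over the 6 libraries, for all 13185 tested genes in grey and for the 45 members in red, with names for the 12 members whose groups do not overlap. The members lie within the cloud of all genes.

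Genes that work with the members did not pass the test either. Of 80 genes in 5 further lists, 75 were tested and 0 were called in either direction, against the 0.212% of all tested genes. At an unadjusted p under 0.05, 3 of the 75 were higher and 8 lower, against 5.08% higher and 7.03% lower among all tested genes. Among 16 tested other cyclin and CDK family genes the median log2 change was -0.06. CDK2, the partner of cyclins E and A, averaged 43.5 ± 1.41 FPKM in construct and 49.5 ± 0.735 FPKM in control libraries (SD, n = 3 each; log2 change -0.18, adjusted p = 0.222), and CCNE2 averaged 35.1 ± 0.542 FPKM in construct and 39.4 ± 2.57 FPKM in control libraries (log2 change -0.16, adjusted p = 0.347). Among 19 pocket protein, E2F and DREAM genes (median -0.02), MYBL2, which encodes B-MYB, averaged 53.01 ± 1.18 FPKM in construct and 65.2 ± 6.55 FPKM in control libraries (log2 change -0.29, adjusted p = 0.158) and the MuvB subunit LIN52 12.7 ± 1.42 FPKM in construct and 10.6 ± 0.597 FPKM in control libraries (log2 change 0.23, adjusted p = 0.37).

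Among 12 partners of CDK7, CDK8 and CDK9 (median log2 change 0.02), the elongation factor ELL2 averaged 3.19 ± 0.486 FPKM in construct and 4.55 ± 0.533 FPKM in control libraries (log2 change -0.41, adjusted p = 0.251) and the P-TEFb inhibitor HEXIM1 53.4 ± 1.13 FPKM in construct and 48.6 ± 1.201 FPKM in control libraries (log2 change 0.13, adjusted p = 0.349). Among 10 ubiquitin ligase genes of the cell cycle (median -0.02), FBXW7, which targets cyclin E, averaged 11.2 ± 0.377 FPKM in construct and 14.3 ± 0.799 FPKM in control libraries (log2 change -0.33, adjusted p = 0.129) and FBXO5, an inhibitor of the anaphase-promoting complex, 18.04 ± 0.0157 FPKM in construct and 21.2 ± 0.794 FPKM in control libraries (log2 change -0.22, adjusted p = 0.207). Among 18 p53 targets (median -0.05), BTG2 averaged 47.9 ± 2.73 FPKM in construct and 55.1 ± 1.98 FPKM in control libraries (log2 change -0.20, adjusted p = 0.236) and BBC3 31.5 ± 2.18 FPKM in construct and 35.5 ± 2.26 FPKM in control libraries (log2 change -0.17, adjusted p = 0.407).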

How the data were processed

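The deposited table gives FPKM per gene in 1 column per library, scaled by the authors. Libraries were matched to columns by name alone: 207 stands for the construct, NC for the control, and the last digit for the replicate. Bowtie2, RSEM 1.3.1, DESeq2 1.4.5 and build hg38 are named, per the submitters' processing notes, without roles. Strand and annotation are unknown. Because the values are no counts, count models were left out. Depth is unknown, since low values (1981 genes) had no common step between libraries from which reads could be recovered (at most 2.27% fell on 1 ratio). No pair of libraries in a group had over 8 identical tested values.

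Values were tested as log2(FPKM + 1), which understates changes of low genes, with limma 3.58.1 in R 4.3.3 (mean-variance trend, two-sided, threshold 0.05), and the fit was tested on simulated data. Intervals are 95%. The p-values set the difference between the groups against the spread of these 6 libraries within their groups, moderated over all tested genes. Gene positions are from GENCODE v29 on GRCh38; 32 members share their listed locus with other rows and 13 have named pseudogenes, so their values are less certain. The members and lists were chosen with earlier results of these data known. All members may be named; of each further list the 2 smallest p were named. Promoters are from RefSeq.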

Additional observations from a re-analysis of the deposited data

How the results depend on the processing

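Over 17 alternatives, 0 members and 0 genes of the further lists were called. The smallest adjusted p of a member was 0.0936, for CCNL2 with the replicate block, and 0.0532 in the further lists, for MYBL2 without control replicate 1. The sign of the estimate changed in at least 1 alternative for 14 of the 45 tested members, each with a main estimate under 0.08 in size, and in none for the other 31. The WEE1 log2 change was 0.00146 with TPM scaling and 0.00297 with library weights, and the CDKN1A log2 change was -0.018 with quantile scaling. Leaving out 1 library gave -0.057 to 0.057 for WEE1, -0.041 to 0.047 for CDKN1A, -0.013 to 0.023 for CCNA2 and -0.080 to 0.016 for MKI67. The number of genes called in the whole table, 28, was 4 without a filter, 64 with the filter at 5 FPKM, 18 with median-of-ratios scaling and 5 without a variance trend. Leaving out 1 library gave 7 to 33 genes, with 12, 17 and 7 without construct replicates 1, 2 and 3, and 10 and 15 without control replicates 2 and 3. The median of the INK4 class, -0.15, was -0.091 with the filter at 5 FPKM and -0.22 to -0.093 with 1 library left out, and that of the phosphorylation, CKS and SKP2 class, -0.06, was -0.017 with that filter. With 1 library left out the medians were 0.0079 to 0.065 for the cyclins of G1, S and mitosis and -0.15 to -0.026 for the cell cycle CDKs. They were 0.015 to 0.090 for the CDKs of transcription, -0.080 to -0.020 for phosphorylation, CKS and SKP2, -0.098 to -0.022 for CIP/KIP, -0.061 to 0.0088 for the cyclins of transcription and splicing, -0.13 to 0.0020 for the other cyclins, -0.044 to 0.028 for CDK5, CDK10 and the PCTAIRE type, and -0.0027 to 0.094 for MKI67 and RBL2. The cause of these shifts was not tested.

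With the replicate number as a block, 145 genes were called in the whole table and 0 members. Same-numbered libraries deviated from their group means with correlations across genes of 0.14, 0.01 and 0.17, against -0.21 to 0.07 for libraries of different number. Construct replicates 1 and 3 correlated best with the control replicate of the same number, and construct replicate 2 with control replicate 3 (0.05). These values do not settle whether the numbers pair the libraries, and the main fit used no pairs. What the missing read depth limits is the low genes: CDKN2A and CDK6 had the widest intervals, and nothing can be said of CCND2, CDK14 and CDKN1C beyond their listed values.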
